A study of Mus musculus with 7 samples.

Results

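The Hox genes were read here in sorted glioblastoma cells of mice, by cluster and by position in the cluster. They were chosen by symbol alone, as the rows named Hoxa, Hoxb, Hoxc or Hoxd followed by a number. This gave 39 genes of the 23282 entries in the table: 11 in the HoxA cluster, 10 in HoxB, 9 in HoxC and 9 in HoxD. The rule used no expression value. Both groups were adult C57BL/6 mice with glioblastoma, from which tdTomato-positive tumour cells had been sorted. The WT group had 3 libraries and the group labelled as knockout of Fyn, a Src-family kinase, had 4. Per the series' design text, the cells of each library were sorted and the library prepared independently. How the tumours were induced, which cells carried the Fyn deletion and what drove tdTomato are not stated in the labels used.

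Hox genes encode homeodomain transcription factors that lie in 4 clusters in the mouse. Within a cluster, the genes are numbered by paralog group from 1 to 13, and members of a group in different clusters descend from a common ancestral gene. In the embryo the low-numbered genes are switched on first and reach furthest forward, into the hindbrain. The high-numbered genes follow later and stay at lumbar, sacral, tail and distal limb levels. The forebrain and midbrain form in front of the Hox domain. Many tissues outside the nervous system, such as trunk mesoderm and its derivatives, keep a combination of Hox genes in the adult that reflects where they formed. Groups 1 to 4 are called anterior, 5 to 8 central and 9 to 13 posterior below.

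RNA was measured by sequencing tags from the 3' ends of transcripts, with 8976745 to 16371244 counts per library. Levels are counts per 1000000 counts of the library (CPM). Because a transcript gives about 1 tag whatever its length, levels of different genes were set side by side without division by length. Fyn itself stood at 1039, 720 and 1604 CPM in the WT libraries and at 105, 106, 74.5 and 190 CPM in the Fyn-KO libraries. It was lower in Fyn-KO (log2 fold change -3.43, SE 0.51, edgeR adjusted p = 0.0121). Which part of Fyn was deleted is not given, so 3' tags check the labels only in part. The groups also differed well beyond the Hox genes. Between 33.2% and 42.6% of all entries had a count in a WT library, against 58.1% to 62.5% in a Fyn-KO library. Genes also dropped out of single WT libraries. Of the genes at 50 CPM or more in a WT library, 8.25%, 15.2% and 8.76% were under 1 CPM in both other WT libraries, whereas in each Fyn-KO library 0 were under 1 CPM in the other 3. Hcfc1, a broadly used chromatin gene picked here after its values were seen, had 331 and 230.3 CPM in WT replicates 1 and 2 and no count in replicate 3. A count of 0 in WT is therefore given below as no count detected, and whether the gene was off in those cells was not tested. Markers of oligodendrocyte progenitors and glioma summed to 8055 to 11920 CPM per WT library and 133 to 874 CPM per Fyn-KO library, so the labelled tumour cell type was less evident in the Fyn-KO libraries. Genes of steroid-producing cells summed to 209.5 to 479.9 CPM per WT library and 24520 to 29080 CPM per Fyn-KO library.

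As a sum, the 38 Hox genes described by value had plentiful RNA in all 4 Fyn-KO libraries and nearly none in the WT libraries. Together they took 852.5, 816, 716 and 806 CPM in Fyn-KO, a mean of 797.5 ± 58.0 CPM (SD, n = 4). In WT they took 0.391, 0.183 and 0.672 CPM, a mean of 0.415 ± 0.245 CPM (SD, n = 3). In all, 30 of 39 genes had a count in at least 1 Fyn-KO library, and 8 of 39 had a count in at least 1 WT library. Only 19 of the 39 had a count in every Fyn-KO library. For the 38, the WT counts came from 7 genes and added up to 16 counts over the 3 libraries, with at most 5 for a gene in a library. In these bulk samples, fewer cells of a type and less RNA per cell cannot be told apart.

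**Figure D1:**
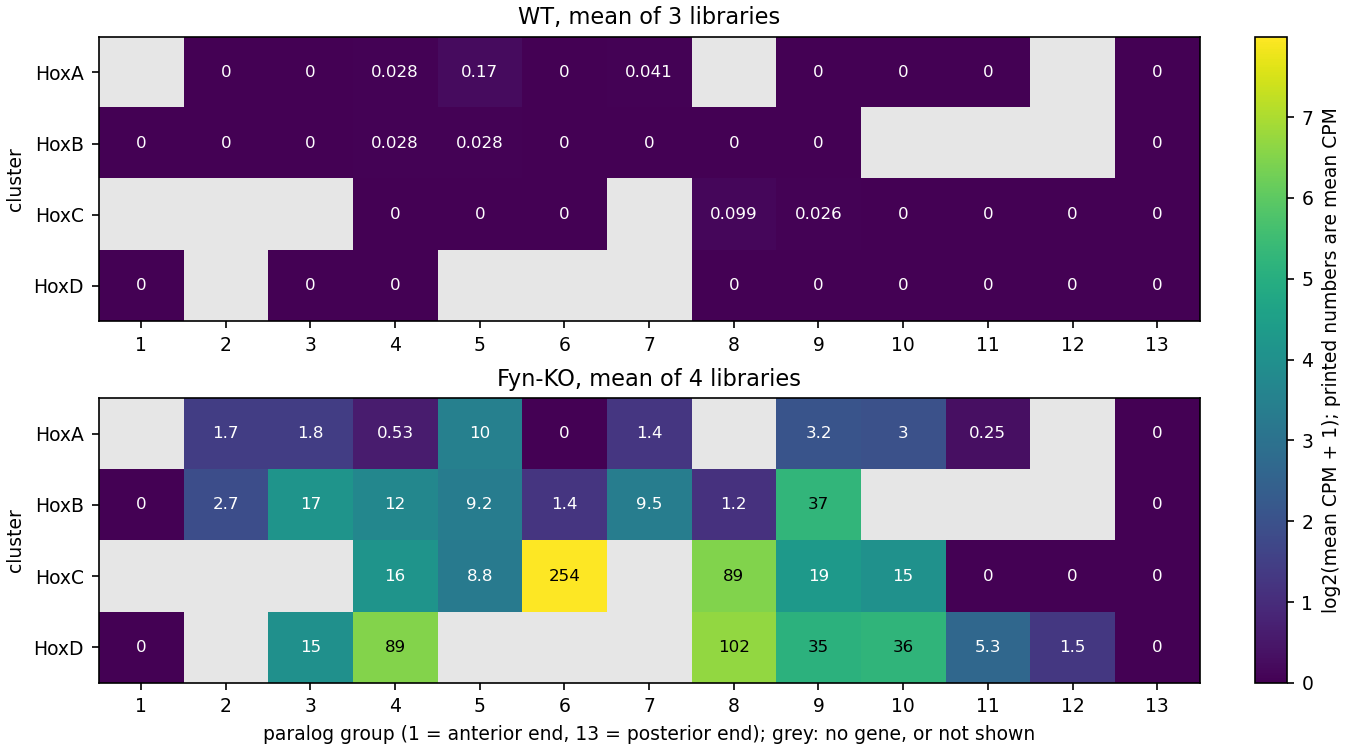
Mean CPM of 38 Hox genes in WT (top, 3 libraries) and Fyn-KO (bottom, 4 libraries), with clusters as rows and paralog groups as columns, the colour showing log2(mean CPM + 1) and grey marking positions without a gene or not shown. Hoxc6, at 254 CPM, is the brightest cell in Fyn-KO, the group 13 column stays at 0, and no WT cell reaches 0.2 CPM.

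Of the 39 genes, 19 passed the filter on low counts and could be tested, and 18 of these were higher in Fyn-KO at an adjusted p under 0.05 (edgeR quasi-likelihood F test, adjusted p 0.00554 to 0.0365). None was lower by edgeR at the adjusted threshold, and 0 were lower at an unadjusted p under 0.05 or by DESeq2. Over all 13122 genes tested, 19.0% were called higher and 3.51% lower. In all 19 tested Hox genes the 4 Fyn-KO values lay above the 3 WT values, which held for 30.1% of all genes tested. The tested Hox genes passed the filter through the Fyn-KO libraries alone, since each had fewer than 10 counts in every WT library. Among all genes with so few WT counts 77.3% were called higher, and among genes with no WT count and 10 or more counts in each Fyn-KO library 100% were, so the count of 18 describes absent WT counts and is not particular to Hox genes. DESeq2 called 19 of the 19 higher, against 27.2% of all genes (7.0% were lower). With limma-voom and sample quality weights, 0 of 19 passed the adjusted threshold and 2 passed an unadjusted p under 0.05, against 0.183% of all genes called higher and 2.44% lower. With the replicate number as a block, 3 of 19 were called higher, against 1.43% of all genes higher and 1.03% lower.

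The share of Hox genes with a count followed the group, as the plot of detection by library shows. In WT, 3, 3 and 4 of the 39 genes had a count, or 7.69%, 7.69% and 10.3%. In Fyn-KO it was 23, 26, 24 and 22 genes, or 59.0%, 66.7%, 61.5% and 56.4%. In each Fyn-KO library the Hox share lay near that of all entries, and in each WT library it lay far below. The WT libraries were deeper, at 11911864 to 16371244 counts against 8976745 to 10396507, and the part of such library differences in the Hox counts was not tested.

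**Figure D2:**
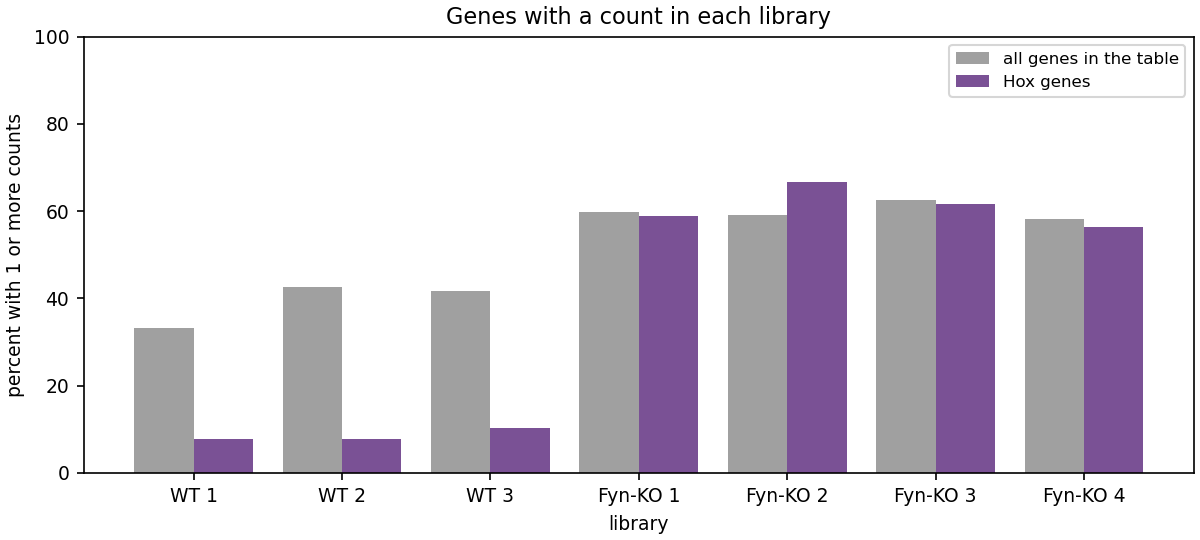
Percent of all 23282 entries (grey) and of the 39 Hox genes (purple) with 1 or more counts in each of the 7 libraries. The purple bars reach 7.69% to 10.3% in WT and 56.4% to 66.7% in Fyn-KO.

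The HoxC cluster (chromosome 15, 102921103 to 103036852, GRCm38) carried the most Hox RNA in Fyn-KO. Its 9 genes summed to 402 ± 48.1 CPM (SD, n = 4), or 50.4% of the Hox total, against 0.125 ± 0.166 CPM in WT (SD, n = 3). Most of this was Hoxc6, which helps set thoracic and forelimb-level identity in the trunk and spinal cord (102998257 to 103011881, plus strand). Hoxc6 stood at 236, 277, 247 and 254 CPM in the Fyn-KO libraries and had no count in any WT library. Its values were high and close together, with a mean of 254 ± 17.4 CPM (SD, n = 4). Against a floor of 3 counts per WT library, Hoxc6 was at least 1008-fold higher (log2 fold change fitted as 14.49, SE 0.98, edgeR adjusted p = 0.00554). Alone it made up 31.9% of Hox RNA.

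Hoxc8, which patterns thoracic vertebrae and the motor neurons of the forelimb, was the next HoxC gene. It stood at 98.9, 120.1, 51.9 and 83.2 CPM in Fyn-KO and at 0.235, 0.0611 and 0 CPM in WT. The groups were far apart although Fyn-KO replicate 3 was lower than the rest. Pooled counts gave a ratio of 920.4 over 4 WT counts, with an exact 95% interval of 359 to 3380 that covers counting error only (log2 fold change 9.65, SE 1.59, edgeR adjusted p = 0.0121). Hoxc4, the first HoxC gene and one of cervical levels, stood at 21.1, 24.6, 13.4 and 6.79 CPM in Fyn-KO and had no WT count. Hoxc9, which sets thoracic motor neuron identity, was the steadiest of the smaller members at 18.9 ± 1.68 CPM (SD, n = 4), with 1 WT count. Hoxc10, a lumbar-level gene, was at 15.3 ± 8.42 CPM and Hoxc5 at 8.78 ± 6.65 CPM (SD, n = 4), and neither had a WT count. Hoxc5 varied widely, from 0.668 to 17.0 CPM. All 6 of these genes were called higher, and the 3 posterior genes Hoxc11, Hoxc12 and Hoxc13 had no count in any of the 7 libraries. The HoxC cluster was thus counted without a gap from its first member to Hoxc10 and not beyond.

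**Figure D3:**
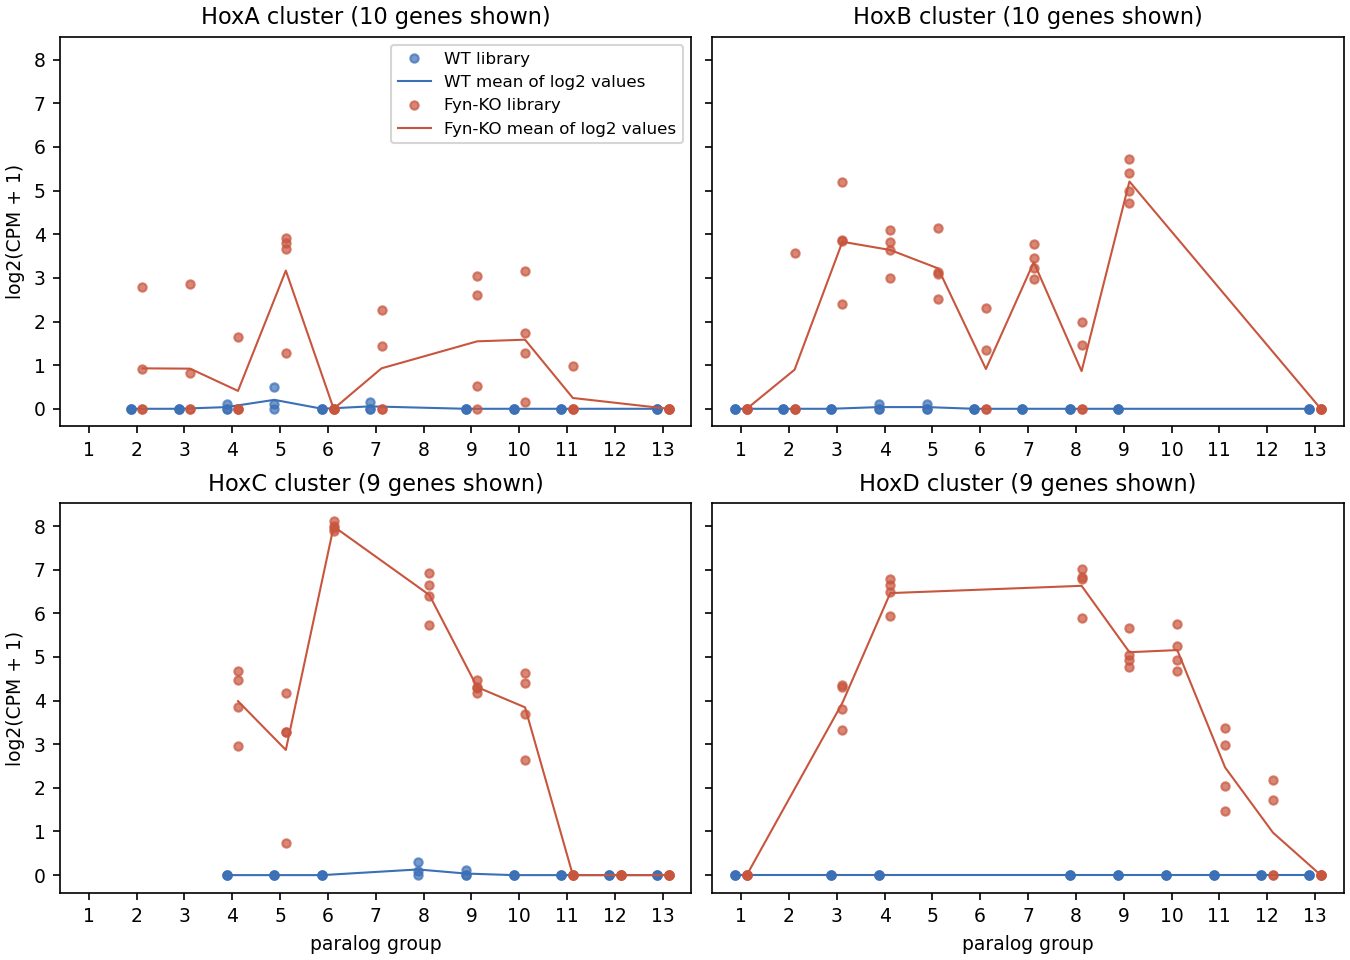
Each panel plots log2(CPM + 1) of the genes of a cluster against paralog group, with 1 point per library (blue WT, red Fyn-KO) and a line through the mean of the log2 values. In Fyn-KO, HoxC peaks at group 6 and is at 0 from group 11 on. HoxD is highest at groups 4 and 8, with no gene between them, and falls to 0 at group 13.

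The HoxD cluster (chromosome 2, 74668310 to 74765142) came next in level and had no count in WT, with 0 counts for all 9 genes in all 3 libraries. In Fyn-KO it summed to 284 ± 52.0 CPM (SD, n = 4), or 35.7% of the Hox total. Levels rose and fell along the cluster. Hoxd1 was at 0 in each library, Hoxd3 at 15.1 ± 5.0, Hoxd4 at 89.3 ± 21.1, Hoxd8 at 102 ± 30.6, Hoxd9 at 34.5 ± 10.6, Hoxd10 at 36.2 ± 12.6, Hoxd11 at 5.30 ± 3.50 and Hoxd12 at 1.45 ± 1.75 CPM (SD, n = 4), with Hoxd13 again at 0. Hoxd13 is known for patterning the digits and the urogenital tract, and Hoxd10 for lumbar motor neurons and the hindlimb.

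Hoxd8, a trunk gene, stood at 129, 58.3, 109 and 112 CPM in the Fyn-KO libraries, with replicate 2 the low one. It was at least 406-fold higher than the WT floor (log2 fold change fitted as 13.18, SE 1.52, edgeR adjusted p = 0.0121). Hoxd4, active in the hindbrain and at cervical levels, stood at 109, 88.8, 60.3 and 99.0 CPM, with replicate 3 the low one. It was at least 355-fold higher (log2 fold change fitted as 12.97, SE 1.54, edgeR adjusted p = 0.0121). Hoxd3, Hoxd9, Hoxd10 and Hoxd11 were also called higher, at lower bounds of 59.8-fold, 137-fold, 144-fold and 21.0-fold. Hoxd12 was counted in 2 of 4 Fyn-KO libraries and was not tested. GENCODE models of Hoxd3 and Hoxd4 share 388 exon bases on the same strand, where a tag could be given to either. Of these, 0 lie in the last 500 bases of either model, where 3' tags are taken. The same-strand model Gm28230 shares 2225 exon bases with Hoxd3 and 1154 with Hoxd4, of which 0 and 22 lie in the last 500. The antisense gene Haglr covers 21 of the last 500 bases of Hoxd3. How tags in these overlaps were assigned was not tested.

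The start regions of these genes are shown because their levels ranged from the second highest of all Hox genes to 0 within a single cluster. Of the HoxD promoters in the RefSeq table (GRCm38.p6), those of Hoxd4, Hoxd8, Hoxd10 and Hoxd13 are printed as the 250 bases before the start on the plus strand, 5′ to 3′. None overlaps an annotated exon. Capitals mark AGGTCA, the half-site of retinoic acid receptors, on either strand, so that it reads TGACCT where it lies on the other.
Hoxd13 (chr2:74667975-74668224): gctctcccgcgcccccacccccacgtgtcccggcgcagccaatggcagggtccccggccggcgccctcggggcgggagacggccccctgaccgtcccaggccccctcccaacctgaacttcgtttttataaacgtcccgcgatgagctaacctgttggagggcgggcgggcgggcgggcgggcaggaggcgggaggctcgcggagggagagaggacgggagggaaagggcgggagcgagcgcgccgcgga
Hoxd10 (chr2:74691641-74691890): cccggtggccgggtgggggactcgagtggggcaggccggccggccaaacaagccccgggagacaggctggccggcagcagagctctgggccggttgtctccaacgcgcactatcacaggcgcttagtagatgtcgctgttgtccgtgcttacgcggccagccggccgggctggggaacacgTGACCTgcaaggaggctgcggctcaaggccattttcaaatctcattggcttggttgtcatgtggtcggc
Hoxd8 (chr2:74704365-74704614): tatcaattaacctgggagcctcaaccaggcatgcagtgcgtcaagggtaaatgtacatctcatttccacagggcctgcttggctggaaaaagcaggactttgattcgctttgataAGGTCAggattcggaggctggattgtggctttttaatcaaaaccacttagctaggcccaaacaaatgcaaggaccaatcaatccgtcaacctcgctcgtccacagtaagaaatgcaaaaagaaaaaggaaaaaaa
Hoxd4 (chr2:74721728-74721977): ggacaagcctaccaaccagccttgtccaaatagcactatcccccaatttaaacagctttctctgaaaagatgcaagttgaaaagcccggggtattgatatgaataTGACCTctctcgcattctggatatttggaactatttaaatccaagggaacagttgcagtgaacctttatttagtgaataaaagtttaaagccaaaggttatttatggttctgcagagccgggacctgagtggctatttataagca
Hoxd13, with no count, had the richest of these windows in G and C, at 74.4% with 31 CpG dinucleotides. Hoxd10 had 65.6% and 20, Hoxd8 44.4% and 6, and Hoxd4 40.4% and 3. The AGGTCA letters occurred in the windows of Hoxd10, Hoxd8 and Hoxd4 and not in that of Hoxd13. They were also absent from the windows of Hoxd9 and Hoxd11, which were both called higher, and from those of Hoxd1 and Hoxd12. Hoxd9 had 65.2% G and C, the windows of Hoxd11 44.8% and 60.4%, and that of Hoxd12 55.6%. Neither the letters nor the GC content thus followed the level across all HoxD windows. The table gave 24 promoters for 22 of the 39 Hox genes. AGGTCA was found in 6 of these 24 (25%), those of Hoxb4, Hoxc4, Hoxd3, Hoxd4, Hoxd8 and Hoxd10, and in 14.0% of all 32851 promoters. The Pbx-Hox motif TGATNNAT, searched on both strands, was found in 4 (16.7%) and in 7.68% of all. A direct repeat of AGGTCA with 5 bases between was found in 0 of the 24 and in 0.00913% of all. The median GC content was 58.6% for Hox promoters and 52.4% for all, with 12.5 and 6 CpG dinucleotides. A match is a description of letters and not of a bound site.

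The HoxB cluster (chromosome 11, 96194316 to 96368256) summed to 89.9 ± 13.9 CPM in Fyn-KO (SD, n = 4), or 11.3% of the Hox total, and to 0, 0 and 0.168 CPM in WT. Its largest member was Hoxb9, a gene of thoracic levels, at 37.3 ± 11.7 CPM and a range of 25.4 to 51.9. With no WT count it was at least 148-fold higher (edgeR adjusted p = 0.0121). Hoxb3, Hoxb4, Hoxb5 and Hoxb7 followed at 16.7 ± 13.2, 11.9 ± 3.78, 9.17 ± 5.24 and 9.49 ± 2.52 CPM (SD, n = 4). Hoxb4, known from work on blood stem cells, and Hoxb5 each had 1 WT count, and all 5 genes were called higher. Hoxb2, Hoxb6 and Hoxb8 appeared in 1, 2 and 2 of 4 Fyn-KO libraries and were not tested. All counts of Hoxb2, a hindbrain gene, came from Fyn-KO replicate 2, at 10.97 CPM. The ends of the cluster, Hoxb1 and Hoxb13, had no count in any library. The last 500 bases of Hoxb2 and 493 of those of Hoxb3 overlap exons of the antisense gene Hoxb3os, and the strand of counting is not given, so reads of these 2 genes and of Hoxb3os cannot be told apart.

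The HoxA cluster (chromosome 6, 52155590 to 52260880) was the weakest in Fyn-KO, at 21.9 ± 12.7 CPM (SD, n = 4) and 2.68% of the Hox total. Its values were 24.1, 28.9, 3.39 and 31.3 CPM, so that replicate 3 stood apart as low. Hoxa5, needed for lung and upper thoracic development, was its largest member, at 14.2, 11.7, 1.42 and 12.9 CPM in Fyn-KO and 0.0783, 0 and 0.420 CPM in WT. The groups did not overlap, but Hoxa5 was the tested Hox gene that missed the threshold (log2 fold change 5.52, SE 1.81, edgeR adjusted p = 0.0588). Leaving out WT replicate 2 or 3 gave adjusted p of 0.0331 and 0.0277, and leaving out WT replicate 1 or any Fyn-KO library gave 0.0617 to 0.116. Hoxa10, required in the uterus and for lumbar identity, ranged from 0.110 to 7.91 CPM in Fyn-KO with no WT count. It was at least 11.7-fold higher (log2 fold change fitted as 8.03, SE 2.04, edgeR adjusted p = 0.0365). That call did not hold without WT replicate 1, 2 or 3, at adjusted p of 0.0884, 0.0718 and 0.0848.

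The other HoxA genes were sparse. Hoxa9 was counted in 3 of 4 Fyn-KO libraries, Hoxa2, Hoxa3 and Hoxa7 in 2 each, and Hoxa4 and Hoxa11 in 1 each, with means of 0.246 to 3.20 CPM. None of these 6 genes was tested, and Hoxa4 and Hoxa7 also had a count in 1 WT library each. Hoxa6 and Hoxa13 had no count in any library. Exons of antisense genes overlap the last 500 bases of Hoxa3, Hoxa4 and Hoxa7, so their few reads could belong to either strand.

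Read across clusters, the central genes held most of the Hox RNA of Fyn-KO, chiefly through Hoxc6, Hoxd8 and Hoxc8. Groups 5 to 8 summed to 486 ± 24.8 CPM, groups 1 to 4 to 156 ± 35.5 CPM and groups 9 to 13 to 155 ± 11.2 CPM (SD, n = 4). These were 61.0%, 19.4% and 19.6% of the Hox total. Central shares were 59.5%, 61.6%, 63.3% and 59.6% in the 4 libraries and kept the first place in each. The anterior sum was 177, 172, 103 and 173 CPM, with replicate 3 low. By single group, group 6 summed to 255 ± 19.0 CPM, group 8 to 192 ± 29.4, group 4 to 118 ± 25.4, group 9 to 93.9 ± 17.7 and group 10 to 54.5 ± 8.65 CPM (SD, n = 4). Group 3 summed to 33.5 ± 19.1, group 5 to 28.0 ± 7.10 and group 7 to 10.9 ± 3.25 CPM (SD, n = 4). The central groups 5 and 7 thus lay below groups 3, 4, 9 and 10 in mean, and the central sum came mostly from groups 6 and 8. Group 13 stood at 0. For the 4 group 13 genes, 0 counts allow up to 0.334 CPM in the shallowest Fyn-KO library. Genes with a count in every Fyn-KO library thus ran from group 3 to group 11.

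**Figure D4:**
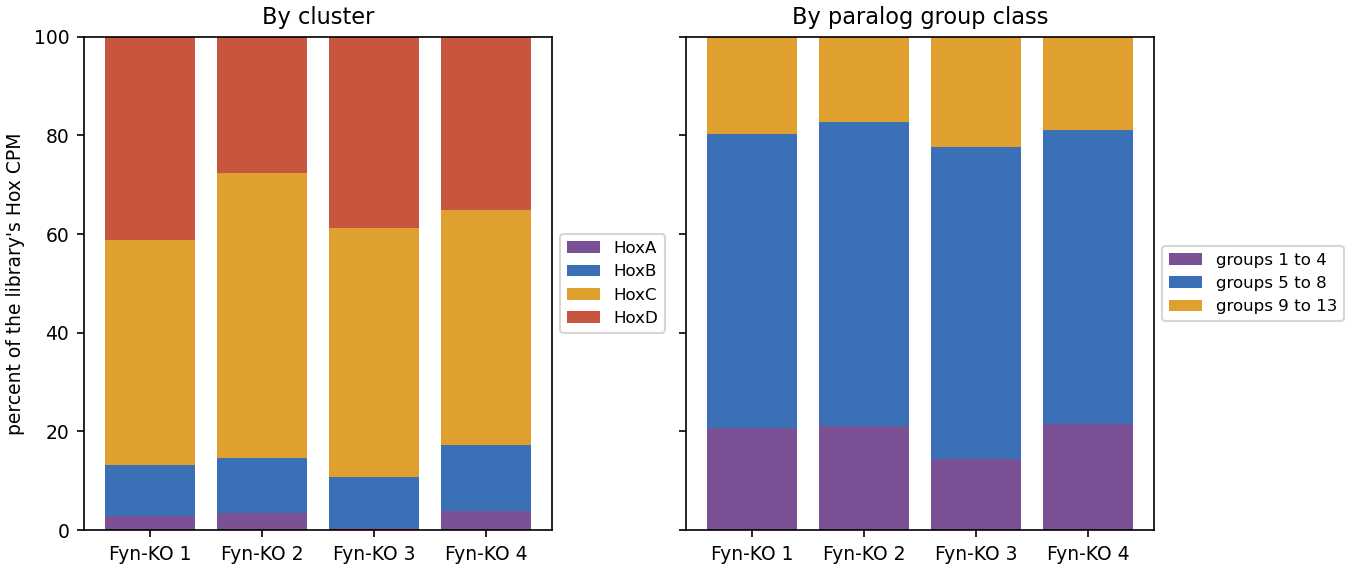
Stacked bars give the percent of each Fyn-KO library's Hox CPM by cluster (left) and by paralog group class (right). HoxC takes 45.6% to 57.8% and HoxD 27.6% to 41.2%, and groups 5 to 8 take 59.5% to 63.3%.

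Within a paralog group, members of different clusters were far from equal. Of 35 pairs with a count in Fyn-KO, 22 had the same order in all 4 libraries and 20 had ranges that did not overlap. In group 6, Hoxc6 exceeded Hoxb6 185-fold while Hoxa6 was at 0. In group 4, Hoxd4 was 5.42-fold above Hoxc4 and 7.5-fold above Hoxb4, with separate ranges. In group 10, Hoxd10 was 2.36-fold above Hoxc10, again with separate ranges. Other paralogs could not be ordered. Hoxd8 and Hoxc8 differed 1.16-fold with overlapping ranges, as did Hoxb9 and Hoxd9 at 1.08-fold, and Hoxa5, Hoxb5 and Hoxc5 overlapped throughout. These are levels within libraries and carry no test.

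In the order of mean levels, Hoxc6 stood clear of Hoxd8, with a lowest value of 236 against a highest of 129 CPM. Hoxd8, Hoxd4 and Hoxc8 did not differ from each other beyond their spread, and neither did Hoxb9, Hoxd10 and Hoxd9. Hoxc8 exceeded Hoxb9 in all 4 libraries, although their ranges just met, at 51.9 CPM. Hoxd9 lay above Hoxc9 in all 4 libraries with separate ranges, and below Hoxc9 no neighbours down to Hoxa10 were separate. The spread between the Fyn-KO libraries, as SD over mean, ran from 0.0685 for Hoxc6 to 1.16 for Hoxa10, with a median of 0.328 over the 18 called genes. Across the 30 counted genes, log2(CPM + 1) of pairs of Fyn-KO libraries correlated at Pearson r of 0.80 to 0.905. This describes a shared profile across genes, which are not independent replicates.

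Hox proteins bind DNA with TALE homeodomain partners of the Pbx, Meis and Pknox families. Of 8 tested partner genes, edgeR called 0 higher and 0 lower, with 0 higher and 2 lower at an unadjusted p under 0.05. It called 19.0% of all genes tested higher and 3.51% lower. DESeq2 called 2 lower, limma-voom 0 in either direction, and the fit with the replicate block 1 higher. Meis3 and Pknox2 had lower means in Fyn-KO, at 7.54 against 83.3 CPM and 10.1 against 74.0 CPM (edgeR adjusted p of 0.10 and 0.0621).

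Retinoic acid and Cdx proteins switch on Hox clusters in the embryo. Of 9 tested inducers and regulators, 3 were higher and 0 lower by edgeR. For this list and those that follow, the share over all genes tested was 19.0% higher and 3.51% lower. The retinoic acid receptor Rara was at 17.9 ± 9.97 CPM, its partner Rxra at 28.9 ± 3.81 CPM and Aldh1a2, which makes retinoic acid, at 55.7 ± 19.4 CPM in Fyn-KO (SD, n = 4), each at 0.252 CPM or less in every WT library (edgeR adjusted p = 0.0131, 0.0121 and 0.0174). Cdx1, Cdx2, Cdx4, the mesoderm genes T and Tbx6 and the retinoic acid hydroxylase Cyp26a1 had no count in any library. Polycomb proteins keep Hox clusters silent. Of 19 tested, 3 were higher and 0 lower: Bmi1, Cbx2 and Cbx8, at 35.1 ± 15.3, 8.11 ± 4.68 and 3.11 ± 1.64 CPM in Fyn-KO (SD, n = 4). Trithorax proteins and their partners keep the clusters active. Of 15 tested, 2 were higher and 0 lower: the histone demethylase gene Kdm6a at 63.8 ± 13.4 CPM and Mllt3 at 67.6 ± 10.5 CPM (SD, n = 4). Each of these 8 called genes had fewer than 10 counts in every WT library, as did the Hox genes, and 77.3% of all such genes were called higher. With limma-voom, and likewise with the replicate block, 0 of 9, 0 of 19 and 0 of 15 genes of the 3 lists were called higher.

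**Figure D5:**
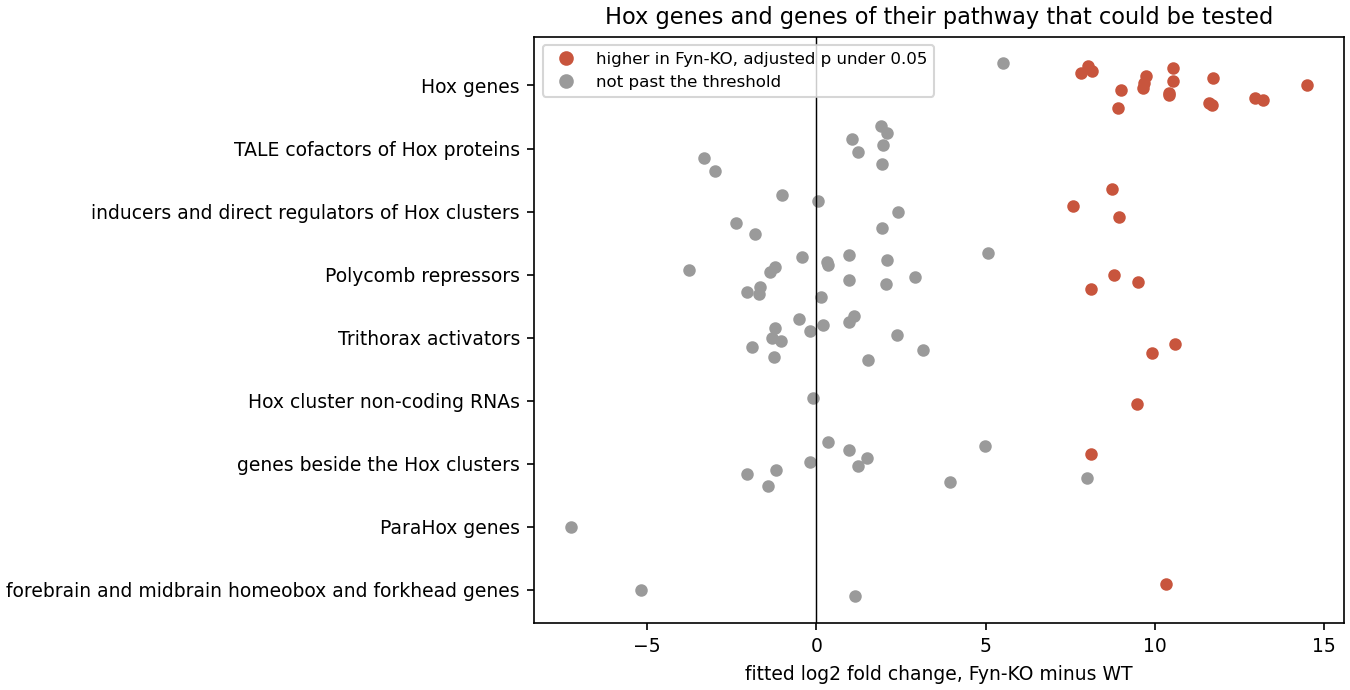
Each point is the fitted log2 fold change (Fyn-KO minus WT) of a tested gene, for the Hox genes and 8 related lists, in red where called higher and grey where not past the threshold. The fitted values of the Hox genes lie between 5.52 and 14.49, and the TALE cofactors lie on both sides of 0 with none called. For the 14 of 19 Hox genes without a WT count, the fitted value is no size. With these 14 at their lower bounds, the median log2 value of the 19 was 7.1.

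Non-coding genes within the clusters mostly had no count. Of 11 in the table, 7 had no count in any library, Hotair, Hottip and Hoxa11os among them. Hoxd3os1, 1 of the 2 that could be tested, was higher in Fyn-KO at 7.77 ± 4.36 CPM (SD, n = 4). It was at least 30.9-fold above the WT floor (edgeR adjusted p = 0.0121). With limma-voom, and likewise with the replicate block, 0 of the 2 were called higher. Hoxd3os1 is antisense and shares 347 exon bases with Hoxd3 and with Hoxd4, 0 of them in the last 500 bases of either. The strand of counting is not given, so reads in the shared bases cannot be told apart. Of 12 tested genes that flank the clusters, 1 was higher and 0 lower by edgeR, against 19.0% and 3.51% of all genes tested. It was Skap1 beside HoxB, at 3.11 ± 3.15 CPM (SD, n = 4) and 0 in WT, with a Fyn-KO range of 0.107 to 6.91 CPM. DESeq2 called 4 of these 12 higher, against 27.2% of all genes. Of 3 tested homeobox and forkhead genes of the forebrain and midbrain, 1 was higher, Emx2, which is also active in the urogenital system, at 14.5 ± 11.6 CPM and 0 in WT. Gsx1, the ParaHox gene that could be tested, had 0, 88.9 and 116.9 CPM in the WT libraries and 0, 0, 1.86 and 0 CPM in the Fyn-KO libraries (edgeR adjusted p = 0.13).

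Markers of several cell types moved with the same groups as the Hox genes, and their part in the Hox values was not tested. For the counts below, edgeR called 19.0% of all 13122 genes tested higher and 3.51% lower. Among genes with fewer than 10 counts in each WT library it called 77.3% higher. Of 8 oligodendrocyte progenitor and glioma markers tested, 5 were lower in Fyn-KO and 0 higher, and none was at 0 in all libraries. Of 5 tested astrocyte markers 2 were lower, at 1924 to 3243 CPM in sum in WT and 418 to 601 CPM in Fyn-KO. Gja1 made up most of that Fyn-KO sum and went the other way without a call (edgeR adjusted p = 0.473). It stood at 0.0783, 12.2 and 214 CPM in the WT libraries and at 275 to 532 CPM in Fyn-KO. Of 4 neuron markers 1 was lower, at 397 to 512 CPM in sum in WT and 46.6 to 98.2 CPM in Fyn-KO. Of 7 fibroblast and mural markers 2, Dcn and Lum, were higher and 0 lower, with sums of 1.72 to 1150 CPM in WT and 1825 to 2721 CPM in Fyn-KO. Of 7 steroid-producing cell markers edgeR called 1, Nr5a1, higher, and 6 had an unadjusted p under 0.05, with the sums given above. DESeq2 called 6 of 7 higher, limma-voom 0 and the fit with the replicate block 7. Of 5 tested granulosa markers 4 were higher, at 0 to 7.21 CPM in WT and 639 to 968 CPM in Fyn-KO. All 3 tested adrenal cortex markers were higher, at 0 in WT and 1039 to 1177 CPM in the Fyn-KO libraries, while Cyp11b2 and Mc2r, which define zones and hormone response of that organ, were at 0 in every library. Of the kidney and urogenital epithelium markers the 1 tested was higher, at 0 to 0.168 CPM in WT and 1.71 to 17.9 CPM in Fyn-KO, and Pax2, Pax8 and Lhx1 were at 0 in every library. Of 6 tested microglia and macrophage markers 2 were higher, with overlapping sums of 118 to 316 CPM in WT and 142 to 171 CPM in Fyn-KO, and of 6 endothelial markers 1 was higher, at 0.626 to 737 and 295 to 383 CPM.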

How the data were processed

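The members and the gene lists were chosen with earlier results of these data known. The authors deposited a table of counts, 1 whole number per gene and library, from 3 WT and 4 Fyn-KO libraries made with the QuantSeq 3' kit, per the labels' protocols. Its name calls it modified, with no word in the labels on how. Per the submitters' processing notes, mm10 (GRCm38), Bowtie2, bedtools and DESeq2 1.32.0 were used. The column of WT replicate 3 matches labels of more than 1 WT sample and entered as a WT library with no sample assigned.

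In R 4.3.3 with edgeR 4.0.16, filterByExpr (minimum count 10, total 15) kept 13122 genes. These were scaled by TMM and compared by the two-sided quasi-likelihood F test, with Benjamini-Hochberg adjustment over all 13122 and a threshold of 0.05. Log2 fold changes are Fyn-KO minus WT, and each SE is approximate, the size of the log2 value divided by the root of its F. What the p-values measure is the spread between these libraries, which may in part be technical. A fold against a group without counts was computed against 3 counts per library (0.252 CPM for WT), is a lower bound and covers counting error only, since tags carry no molecular identifiers. For such genes the fitted log2 value is no size. Alternatives were RLE factors, library totals, other filters, DESeq2 1.42.0, limma 3.58.1 (voom), a replicate block and leaving out each library. Values in every library are given for Hox genes with a mean of 50 CPM or more in a group and for the ends of each cluster, which are written as at 0 where no library has a count, and other Hox genes by range and counts. Values of Hoxa5, Gsx1, Meis3 and Pknox2 were chosen after they were seen. Of each list up to 4 called genes are named. Scripts were tested on simulated data. Coordinates are GENCODE M21, and all 39 genes matched it. The planned comparison of proteins was not run. Of the 39 Hox genes 1 is not reported here by value, and it remains in counts over 39 genes and in sums by cluster and position.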

Additional observations from a re-analysis of the deposited data

Results flagged for a closer look

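The summed level of the anterior Hox genes, groups 1 to 4, had 1 Fyn-KO library far from the others. Replicate 3 stood at 103.2 CPM and the other 3 libraries at 172 to 177 CPM, so that the gap to the nearest was 0.93 of the whole range. Of 28 values tested in this way it was the 1 that passed, and chance alone marks about 1 in 20. In the same library Hoxd4 was at 60.3 CPM and Hoxb3 at 4.27 CPM, the lowest of the 4 libraries for both. Hoxb4, Hoxc4 and Hoxd3 stood at 11.5, 13.4 and 12.9 CPM and were not at their lowest in that library. That library also had the highest sum of oligodendrocyte progenitor and glioma markers, at 874 CPM against 133 to 412 CPM in the other 3, and the lowest sums of fibroblast and mural (1825 against 2400 to 2721 CPM), steroid-producing cell (24520 against 27800 to 29080 CPM) and granulosa markers (639 against 915 to 968 CPM). Their part in the anterior Hox sum was not tested.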

How the results depend on the processing

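The count of 18 Hox genes called higher was 17 to 19 with RLE factors, library totals, no filter, a minimum count of 50 or DESeq2, and 16 to 18 when each library was left out in turn. These counts are over different numbers of tested Hox genes. In place of 19 there were 30 with no filter and 17 at a minimum count of 50. With a WT library left out there were 24, and with a Fyn-KO library left out 17 or 18. It was 0 of 19 with limma-voom and quality weights. When only genes counted in both groups were kept, 0 Hox genes remained to be tested, so the count was 0 by construction. Replicate numbers did not pair the libraries (same-numbered deviations correlated at -0.0142, -2e-04 and -0.0205), and a replicate block, which leaves fewer degrees of freedom, gave 3 of 19, Hoxc6, Hoxd4 and Hoxd8. No Hox gene was called lower and no fold change reversed under any of these alternatives. Hoxa10 lost its call with no filter (adjusted p = 0.0651), and Hoxa5 passed with library totals (0.048), a minimum count of 50 (0.0458) and DESeq2 (0.000359). The cause was not tested. The 8 Hox genes with a WT count became 1 at 10 or more counts in a library, 0 with a count in every library and 5 to 7 when a WT library was left out, the 5 without WT replicate 3. The 30 with a Fyn-KO count became 28, 19 and 28 to 30. A gene below about 3 counts, up to 0.252 CPM per WT library or 0.334 CPM per Fyn-KO library, was not detectable at this depth.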
